A study of Mus musculus with 16 samples.

Results

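RNA of 8 genes that make, load or take up amino acid transmitters was followed in synaptosomes of the mouse cerebral cortex, a fraction of pinched-off nerve terminals with attached postsynaptic membrane. The genes were chosen by name, and each matched 1 of the 48709 genes in the counts table. Glutamate was represented by 3 of them (Slc17a7, Slc17a6 and Slc1a1) and GABA by 4 (Gad1, Gad2, Slc32a1 and Slc6a11), while Slc6a17 encodes a vesicle transporter of neutral amino acids. All mice were C57BL/6. The libraries came from synaptosomes (SYN) of mice aged 3 weeks, 5 months and 19 months and, as a reference at 5 months, from total homogenate (TH), the cortical material kept back before the fraction was enriched, with 4 biological replicates in each of the 4 groups. No treatment or engineered allele is given for any group. All RNA was depleted of cytosolic ribosomal RNA, so mitochondrial and nuclear transcripts were counted along with messenger RNA.

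Excitatory cortical terminals fill their vesicles with glutamate through vesicular glutamate transporters. VGLUT1, the product of Slc17a7, is the main one of cortical neurons, and VGLUT2, the product of Slc17a6, is typical of thalamic inputs. Inhibitory neurons make GABA from glutamate with the decarboxylases GAD67 (Gad1) and GAD65 (Gad2) and load it through VGAT (Slc32a1). Transporters in the plasma membrane of neurons and astrocytes then clear both transmitters from the extracellular space.

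Library totals ran from 10.6 to 21.7 megacounts, and each of the 8 genes passed the low-count filter of every comparison. The least counted was Slc17a6, with 171 to 603 counts per library, and the most counted was Slc17a7, with 5084 to 10920. The fraction differed from homogenate in its other RNA as well. In 5 months SYN the 5 nuclear RNAs examined, Malat1 among them, summed to 1328 to 6453 CPM. In 5 months TH they summed to 19832 to 23896 CPM, and all 5 were called lower in SYN. CPM are counts scaled by library sizes after TMM adjustment, not by the plain library totals. For replicate 1 of 5 months TH the total was 11.6 and the adjusted size 18.3 megacounts. For replicate 1 of 5 months SYN the total was 16.7 and the adjusted size 12.7 megacounts. Levels in SYN against TH therefore depend on this scaling. Endothelial markers were called lower for 8 of 8 genes, whereas 9 of 10 astrocyte and 8 of 8 microglia markers were called higher in SYN. Of all genes tested, 24.5% were called higher and 25.6% lower. A pair of libraries stood apart. Replicate 4 of 5 months SYN had 4817 CPM of Malat1, against 947 to 1458 CPM in the rest of that group, and replicate 1 of 19 months SYN had 57.8% of its counts on the mitochondrial genome, against 36.1% to 37.0% in the others of its group. In tissue fractions of this kind, fewer terminals of a type and less RNA per terminal cannot be told apart.

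In the authors' table (GRCm38.p6) Slc17a7 and Slc17a6 lie on chromosome 7 (45163949 to 45176142 and 51622006 to 51671119) and Slc1a1 on chromosome 19 (28835049 to 28913960). Chromosome 2 holds Gad2 (22622205 to 22693874), Gad1 (70553072 to 70602014) and Slc32a1 (158610767 to 158615748). Slc6a11 is on chromosome 6 (114131241 to 114249952), and Slc6a17, the only one of the 8 on the minus strand, on chromosome 3 (107467543 to 107518018). Several of these genes are close relatives, so how well reads can be assigned depends on their sequence. Gad1 also has a processed copy, Gad1-ps (chromosome 10, bases 99443730 to 99447007 in the authors' table), without introns. Its 1767 aligned bases are 95% identical to the coding sequence of Gad1, with runs of up to 107 identical bases. Between Gad1 and Gad2 the identity was 67% with a longest identical run of 17 bases, and between Slc17a7 and Slc17a6 it was 72.2% with a longest run of 21 bases. The stretches printed here are 90 bases of exons on the plus strand of GRCm38, from GENCODE vM21, and capitals mark the bases that differ within each pair. Only coding stretches of this length without gaps and inside a single exon of each gene were compared. The first pair is the least alike of these for Gad1 (exon 4) and its copy, with 10 differing bases.
Gad1, chr2:70572763-70572852: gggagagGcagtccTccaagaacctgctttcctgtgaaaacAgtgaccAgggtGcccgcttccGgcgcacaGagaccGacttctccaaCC
Gad1-ps, chr10:99444236-99444325: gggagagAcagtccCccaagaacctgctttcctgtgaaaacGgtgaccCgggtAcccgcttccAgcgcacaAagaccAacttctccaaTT
The next pair is the most alike stretch of Gad1 (exon 14) and Gad2 (exon 13), with 15 differing bases.
Gad1, chr2:70594659-70594748: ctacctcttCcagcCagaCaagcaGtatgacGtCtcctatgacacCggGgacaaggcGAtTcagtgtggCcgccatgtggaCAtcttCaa
Gad2, chr2:22681323-22681412: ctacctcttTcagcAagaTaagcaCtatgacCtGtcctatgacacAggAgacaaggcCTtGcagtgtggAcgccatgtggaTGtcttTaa
The last is the most alike stretch of the vesicular glutamate transporters, in exon 2 of both genes, with 12 differing bases.
Slc17a7, chr7:45168836-45168925: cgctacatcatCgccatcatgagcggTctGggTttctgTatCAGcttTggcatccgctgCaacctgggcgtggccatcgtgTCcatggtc
Slc17a6, chr7:51625402-51625491: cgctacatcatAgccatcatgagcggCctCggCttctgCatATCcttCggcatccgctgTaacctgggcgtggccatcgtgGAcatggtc

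Counts assigned to Gad1-ps amounted to 11.2% to 17.8% of those of Gad1 across the 16 libraries. Gad1-ps had 15.4 ± 3.95 CPM in 5 months SYN and 15.2 ± 4.02 CPM in 5 months TH (mean ± SD, n = 4 each), and its reads and those of Gad1 may be split between the loci. Adding its counts to Gad1, an alternative chosen after the data were seen, left the call of Gad1 as it was in all 4 comparisons. Genes on the opposite strand overlap a few of the 8. Gad1os had at most 12 counts in any library, Gm14205 over Slc32a1 at most 20, and 4430402I18Rik over Slc1a1 between 15 and 87, and whether counting used the strand is not given in the sources used here.

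Per kilobase of exon, Slc17a7 was the most abundant of the 8 in 5 months SYN, with 98.0 ± 9.05 CPM per kb, and Slc17a6 the least, with 4.30 ± 1.03 CPM per kb. Slc6a17 was second with 33.2 ± 1.64 CPM per kb. Slc32a1 (20.3 ± 3.02) and Slc6a11 (18.1 ± 3.37 CPM per kb) followed and overlapped each other. Gad1 (13.5 ± 1.67), Gad2 (13.5 ± 1.24) and Slc1a1 (11.6 ± 1.08 CPM per kb) also overlapped, and Slc6a11 reached down into their range, so these neighbours cannot be ordered. The exon lengths are those of the authors and can exceed a single transcript. They are 7639 bases for Gad1, 5876 for Gad2 and 5392 for Slc17a7, against 3355, 5744 and 1860 in the GENCODE transcripts used here for sequence. Levels compared between genes depend on the length chosen. In 5 months TH the first and last places were the same, Slc17a7 with 45.3 ± 7.61 and Slc17a6 with 3.23 ± 0.688 CPM per kb. There the decarboxylases came next after Slc6a17, Gad2 with 16.5 ± 2.03 and Gad1 with 15.3 ± 4.14 CPM per kb, and Slc32a1 had a lower mean of 8.39 ± 2.14 CPM per kb. The TH range of Slc6a17 (17.1 to 21.5 CPM per kb) overlapped that of Gad2 (13.7 to 18.3), and that of Gad1 (10.9 to 20.9) met that of Slc32a1 (5.89 to 11.1).

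**Figure D1:**
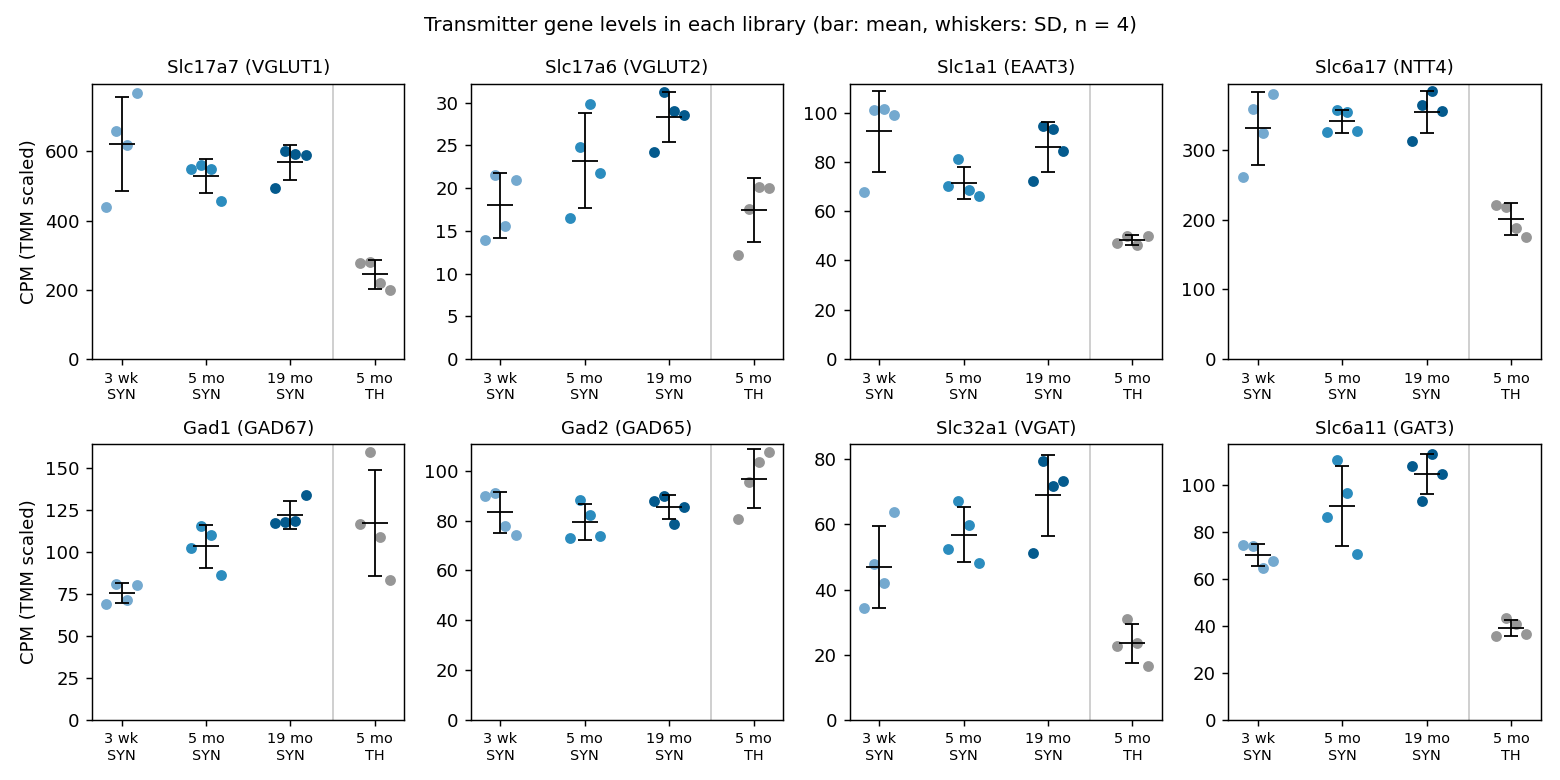
Level of each gene in CPM (vertical axis, from 0) in every library of the 4 groups. Points are libraries, bars the mean and whiskers the SD (n = 4). Slc17a7, Slc1a1, Slc6a17, Slc32a1 and Slc6a11 lie higher in every 5 months SYN library than in any TH library, whereas Gad1 and Gad2 overlap between them.

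The comparison of synaptosomes with homogenate at 5 months asked which transmitter RNAs are held in the fraction. Slc17a7, Slc1a1, Slc32a1, Slc6a11 and Slc6a17 were called higher, Gad2 was called lower, and Slc17a6 and Gad1 were not called. A gene was called at an adjusted p under 0.05 in edgeR's quasi-likelihood test with Benjamini-Hochberg adjustment over all genes tested. The background was wide: 50.1% of the 17374 genes tested were called, 24.5% higher and 25.6% lower. The median log2 fold change of the 8 genes was 0.68, beside -0.05 over all genes tested. With upper-quartile scaling the split over all genes moved to 3367 higher and 5525 lower, against 4248 higher and 4456 lower with TMM, and the median of all genes to -0.19, but the same numbers of the 8 genes were called, 5 higher and 1 lower.

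Slc17a7 had 548, 561, 549 and 456 CPM in replicates 1 to 4 of 5 months SYN, against 278, 281, 219 and 200 CPM in 5 months TH. All 4 SYN libraries were above all 4 TH libraries. The fold change was 2.18, or 1.12 ± 0.11 on the log2 scale (± SE; edgeR adjusted p = 1.75e-06). Slc17a6 had 16.5, 24.8, 29.8 and 21.8 CPM in SYN, against 12.2, 17.5, 20.1 and 20.0 CPM in TH. Its groups overlapped, and its difference of 0.42 ± 0.19 was not called (edgeR adjusted p = 0.0787). With libraries of the same preparation number taken as pairs, its difference was the same, 0.42, but passed the threshold (edgeR with a replicate block, adjusted p = 0.0107). In each of the 4 pairs the SYN value was the higher. Without replicate 1 of SYN the unpaired test passed as well (0.54, adjusted p = 0.0198). Thalamic neuron markers, examined because VGLUT2 is typical of thalamic terminals, summed to 141 to 201 CPM in SYN and 127 to 189 CPM in TH. Of these, 1 of 8 was called higher and 1 lower, beside 24.5% and 25.6% of all genes tested.

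Slc1a1 encodes EAAT3, a glutamate transporter of the neuronal plasma membrane. It had 70.4, 81.1, 68.5 and 66.0 CPM in 5 months SYN, against 47.2, 50.0, 46.2 and 50.0 CPM in 5 months TH. The groups were separate, and the log2 fold change was 0.58 ± 0.08 (edgeR adjusted p = 4.48e-05). Excitatory neuron markers were called higher in SYN for 4 of 8 genes and lower for 0, beside 24.5% and 25.6% of all genes tested. They summed to 405 to 465 CPM in SYN and 298 to 349 CPM in TH. Their part in the glutamate results was not tested.

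Gad1 and Gad2 encode the enzymes of GABA synthesis. Gad1 had 102, 115, 110 and 85.9 CPM in 5 months SYN, against 116, 159, 109 and 83.2 CPM in 5 months TH. All 4 SYN values lay within the range of the TH values, and the log2 difference of -0.17 ± 0.18 was not called (edgeR adjusted p = 0.467), with a 95% interval from -0.58 to 0.24. Gad2 had 72.8, 88.2, 82.2 and 73.9 CPM in SYN, against 80.5, 95.6, 103 and 108 CPM in TH. The groups overlapped, and Gad2 was called lower by a small amount, with a log2 fold change of -0.28 ± 0.10 (edgeR adjusted p = 0.0258). That call was lost without replicate 1 of SYN (adjusted p = 0.0647), without replicate 3 of TH (0.0838) and without replicate 4 of TH (0.0711).

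Of the 8 genes, Slc32a1 had the highest estimated fold change of SYN over TH. It had 52.3, 67.2, 59.8 and 48.1 CPM in 5 months SYN, against 22.8, 31.1, 23.5 and 16.5 CPM in 5 months TH. The groups were separate, with a fold change of 2.44, or 1.29 ± 0.17 on the log2 scale (edgeR adjusted p = 6.62e-05). Set against the decarboxylases of the same libraries, the count of Slc32a1 was 0.513 to 0.584 of that of Gad1 in SYN and 0.195 to 0.216 in TH. Relative to Gad2 it was 0.651 to 0.763 in SYN and 0.153 to 0.325 in TH. These ranges are given as a description, since no test was set for them. VGAT is made by cortical interneurons and by striatal neurons alike. Interneuron markers were called higher for 3 of 10 genes (Npy, Sst and Lamp5) and lower for 2 (Adarb2 and Pvalb), beside 24.5% and 25.6% of all genes tested. They summed to 349 to 462 CPM in SYN and 284 to 344 CPM in TH. Striatal neuron markers were called higher for 7 of 8 genes and lower for 1 (Rgs9), and summed to 610 to 801 CPM in SYN and 315 to 404 CPM in TH. Penk, which encodes proenkephalin, led them with a log2 fold change of 1.65 ± 0.13 (edgeR adjusted p = 7.88e-07). The part of these markers in the Slc32a1 result was not tested.

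Slc6a11 encodes the GABA transporter GAT3, found mainly on astrocytes. It had 86.4, 111, 96.8 and 70.6 CPM in 5 months SYN, against 35.6, 43.4, 40.8 and 36.8 CPM in 5 months TH. The groups did not overlap, and the log2 fold change was 1.23 ± 0.12 (edgeR adjusted p = 1.26e-06). Astrocyte markers moved with it, at 1406 to 1552 summed CPM in SYN and 603 to 635 CPM in TH, with a median log2 fold change of 1.01 over the 10 genes. Their part in the Slc6a11 result was not tested. Slc6a17 encodes NTT4, which carries neutral amino acids into synaptic vesicles. It had 326, 357, 355 and 328 CPM in SYN, against 221, 219, 188 and 175 CPM in TH. The groups were again separate, and the log2 fold change was 0.78 ± 0.09 (edgeR adjusted p = 3.26e-06). Non-overlapping groups were common in this comparison, at 47.9% of all genes tested.

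**Figure D2:**
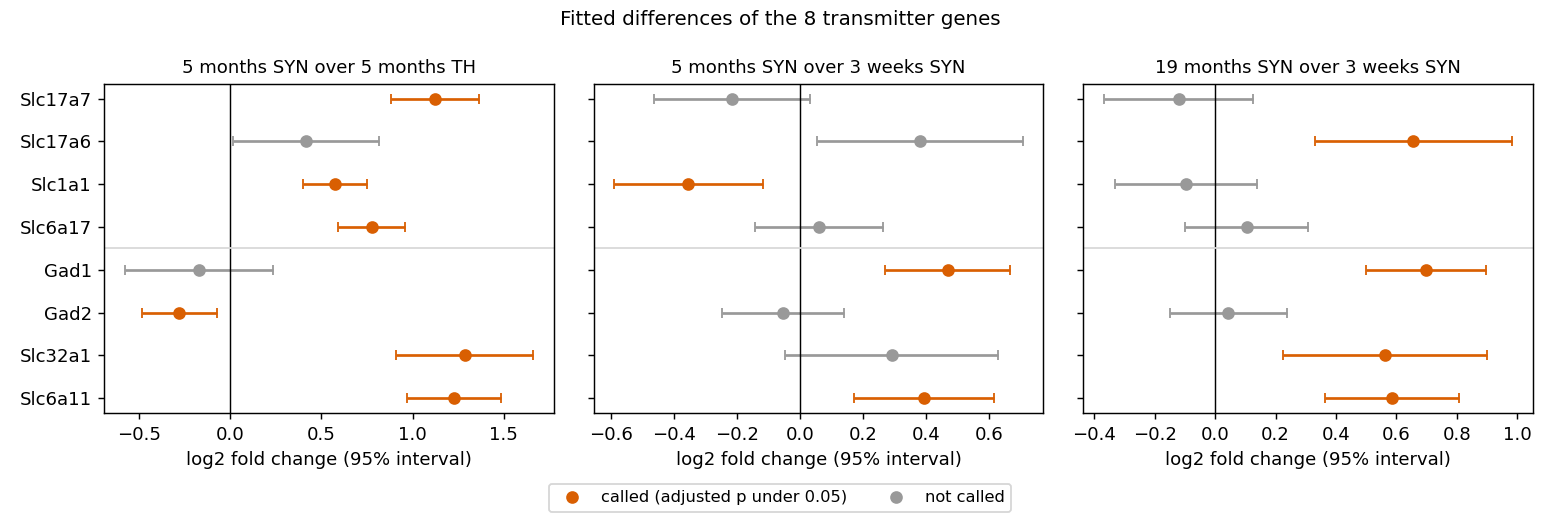
Log2 fold change of each gene with its 95% interval in 3 comparisons (horizontal axes, each with its own range). Glutamate genes and Slc6a17 are above the grey line and GABA genes below it, and orange points passed an adjusted p of 0.05 in edgeR's quasi-likelihood test. Against TH the SYN values are highest for Slc32a1 (1.29), Slc6a11 (1.23) and Slc17a7 (1.12), and at 19 months against 3 weeks Gad1 leads with 0.70.

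Of 16 other genes of glutamate handling, 5 were called higher and 3 lower in SYN against TH, 8 of 16 beside the 50.1% called of all genes tested. The higher ones were Glul, which encodes glutamine synthetase (1.55 ± 0.08 on the log2 scale), the glutamate transporters Slc1a2 (1.19 ± 0.08) and Slc1a3 (1.09 ± 0.09), which are mainly astrocytic, Glud1, which encodes glutamate dehydrogenase, and the glutamine transporter Slc38a1. Slc25a12, a mitochondrial aspartate and glutamate carrier, was among those called lower (-0.37 ± 0.08; edgeR adjusted p = 0.00193).

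Of 6 other GABA genes, 5 were tested, with 3 called higher and 1 lower, beside 24.5% and 25.6% of all genes tested. The enzymes of GABA breakdown, Abat (0.65 ± 0.07) and Aldh5a1 (0.61 ± 0.08), were among those called higher. Slc6a13, which encodes the GABA transporter GAT2, was called lower with 2.46 ± 0.108 CPM in SYN and 8.03 ± 6.30 CPM in TH (-1.68 ± 0.60). Its groups overlapped, with 2.32 to 2.57 CPM in SYN and 2.30 to 15.2 CPM in TH. Among other vesicular transporters, 2 of the 4 tested were called, beside 50.1% of all genes tested. Both were higher, the zinc transporter Slc30a3 (0.53 ± 0.14) and Slc10a4 (1.49 ± 0.50). Slc10a4 was scarce, with 1.98 ± 0.704 CPM in SYN and 0.699 ± 0.370 CPM in TH, and its groups overlapped. For other transmitters, 3 of the 6 tested were called, again beside 50.1% of all genes. All 3 were higher, namely the choline transporter Slc5a7 (1.31 ± 0.25), the glycine transporter Slc6a9 (0.73 ± 0.16) and the amino acid transporter Slc6a15 (0.43 ± 0.13).

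**Figure D3:**
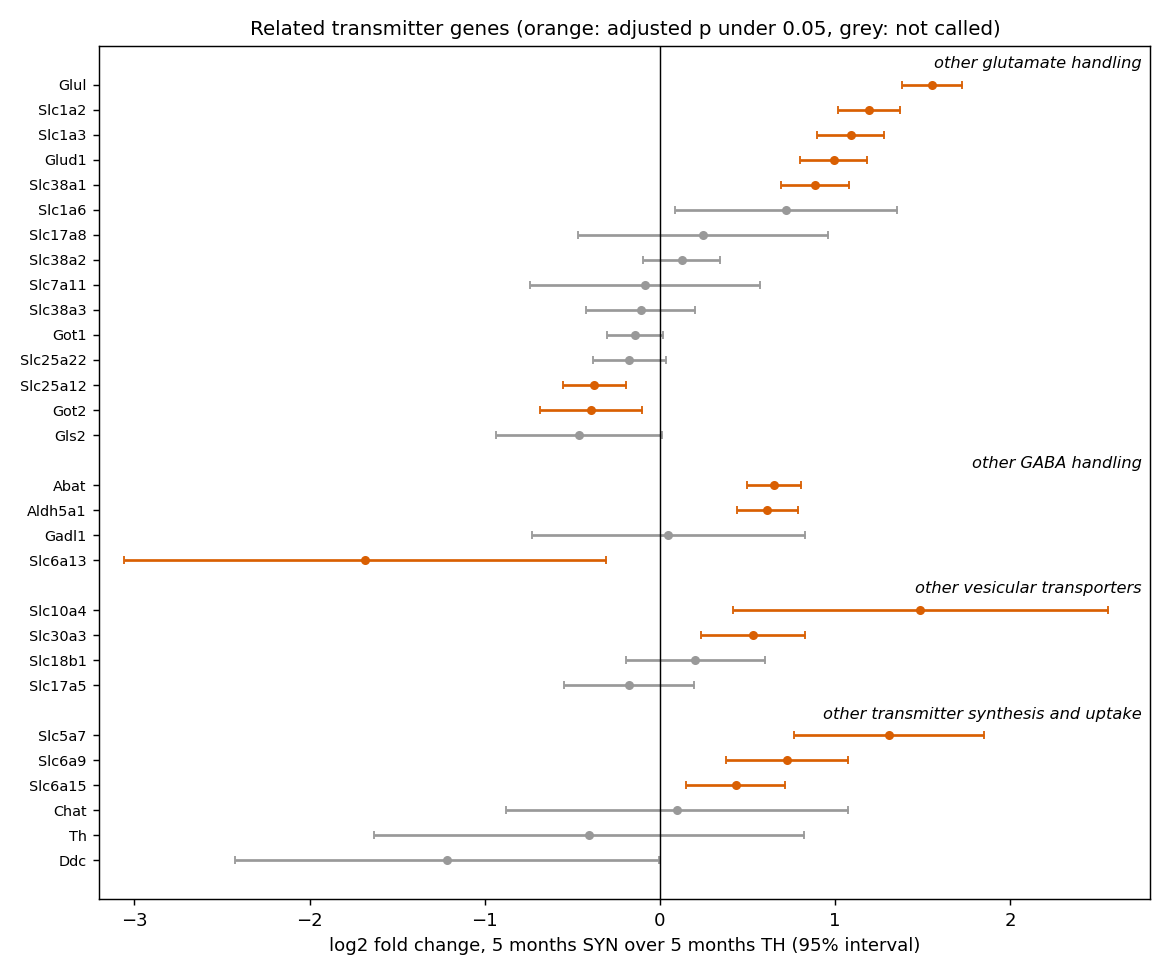
Log2 fold change of 5 months SYN over 5 months TH, with its 95% interval, for tested genes of 4 related groups (horizontal axis; genes down the page). Orange points passed an adjusted p of 0.05. Both directions occur among the transporters, with Slc1a2 (1.19) and Slc5a7 (1.31) on the right and Slc25a12 (-0.37) and Slc6a13 (-1.68) on the left.

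The comparisons of ages asked how the synaptosomal RNA of the same genes differs between young, adult and old mice. They share libraries with each other, and the 5 months SYN libraries are also those set against TH, so the comparisons are not independent. The SYN libraries of each age carry their own run of preparation numbers, so age and set of preparations cannot be told apart. The calls among the 8 genes were all against 3 weeks. Between 5 months and 3 weeks, Gad1 and Slc6a11 were called higher and Slc1a1 lower, 3 of 8 beside a background of 24.6% of 15344 genes (13.3% higher and 11.3% lower). At 19 months against 3 weeks, Gad1, Slc17a6, Slc6a11 and Slc32a1 were called higher and none lower, 4 of 8 beside 19.4% of all genes (10% higher and 9.44% lower). Between 19 and 5 months, 0 of 8 were called by edgeR, beside 0.3% of all genes (46 genes), and 0 of 8 by the DESeq2 Wald test, which called 306 genes in all. Between those ages the lowest adjusted p-values among the 8 genes were those of Gad1 (0.23 ± 0.10, edgeR adjusted p = 0.281) and Slc1a1 (0.26 ± 0.12, edgeR adjusted p = 0.316). Over the 8 genes, the median log2 fold change was 0.18 for 5 months against 3 weeks, 0.21 for 19 against 5 months and 0.33 for 19 months against 3 weeks, and over all genes tested each of these medians was 0.00. Other RNA differed between the ages too. Oligodendrocyte markers were called lower against 3 weeks for 8 of 8 genes at 5 and at 19 months, with sums of 7397 to 10453 CPM at 3 weeks, 2303 to 2858 CPM at 5 months and 2298 to 3220 CPM at 19 months. The 5 nuclear RNAs summed to 609 to 892 CPM at 3 weeks, 1328 to 6453 CPM at 5 months and 1390 to 2205 CPM at 19 months, with 3 of 5 called higher at 5 months against 3 weeks and 0 of 5 at 19 months against 3 weeks. Their part in the differences between ages was not tested.

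Gad1 had 69.0, 81.0, 71.4 and 80.2 CPM in the 3 weeks SYN libraries, 102, 115, 110 and 85.9 CPM in those of 5 months, and 117, 118, 118 and 134 CPM in those of 19 months. No library of either later age fell into the range of 3 weeks, and all 4 libraries of 19 months were above those of 5 months. Its log2 fold change was 0.47 ± 0.10 at 5 months against 3 weeks (edgeR adjusted p = 0.000724) and 0.70 ± 0.10 at 19 months against 3 weeks (adjusted p = 7.43e-06). The step from 5 to 19 months was not called (adjusted p = 0.281). Groups without overlap made up 22.7%, 8.06% and 22.9% of all genes tested for 5 months against 3 weeks, 19 against 5 months and 19 months against 3 weeks.

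Gad2 did not follow Gad1. It had 89.7, 91.1, 77.9 and 74.3 CPM at 3 weeks, 72.8, 88.2, 82.2 and 73.9 CPM at 5 months, and 87.8, 89.7, 78.7 and 85.5 CPM at 19 months, and the 3 ages overlapped. Its log2 difference at 19 months against 3 weeks was 0.04, with a 95% interval from -0.15 to 0.24 (edgeR adjusted p = 0.803).

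Slc32a1 had 34.3, 47.7, 41.9 and 63.7 CPM at 3 weeks, 52.3, 67.2, 59.8 and 48.1 CPM at 5 months, and 51.1, 79.6, 71.7 and 73.4 CPM at 19 months. All ages overlapped, and 19 months and 3 weeks did so through replicate 1 of 19 months and replicate 4 of 3 weeks. The log2 fold change at 19 months against 3 weeks was 0.56 ± 0.16 (edgeR adjusted p = 0.0186). This call was lost when all 16 libraries entered the fit (adjusted p = 0.0648) and without replicate 2, 3 or 4 of 19 months (0.0670, 0.0505 and 0.0530) or replicate 3 of 3 weeks (0.0662). It held without the libraries that stood apart (0.69, adjusted p = 0.00130). At 5 months against 3 weeks, Slc32a1 differed by 0.29 ± 0.16 and was not called (adjusted p = 0.207), although it was called without replicate 4 of 3 weeks (0.47, adjusted p = 0.0150).

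The astrocytic Slc6a11 had 74.4, 74, 64.8 and 67.6 CPM at 3 weeks, 86.4, 111, 96.8 and 70.6 CPM at 5 months, and 108, 93.1, 114 and 105 CPM at 19 months. All libraries of 19 months were above those of 3 weeks, and only replicate 4 of 5 months lay in the range of 3 weeks. The log2 fold changes against 3 weeks were 0.39 ± 0.11 at 5 months (edgeR adjusted p = 0.00876, but 0.0613 without replicate 2 of 5 months) and 0.59 ± 0.11 at 19 months (adjusted p = 0.000282). Astrocyte markers summed to 1326 to 1551 CPM at 3 weeks, 1406 to 1552 CPM at 5 months and 1463 to 1608 CPM at 19 months, ranges that overlap. At 19 months against 3 weeks, 2 of the 10 were called higher and 1 lower, beside 10% and 9.44% of all genes tested.

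Of the 3 glutamate genes, Slc17a6 was the one called higher in old than in young synaptosomes. It had 13.9, 21.5, 15.6 and 21.0 CPM at 3 weeks, 16.5, 24.8, 29.8 and 21.8 CPM at 5 months, and 24.2, 31.3, 29.0 and 28.6 CPM at 19 months. The libraries of 19 months were all above those of 3 weeks, and those of 5 months spanned both. The log2 fold change was 0.66 ± 0.16 at 19 months against 3 weeks (edgeR adjusted p = 0.00404). At 5 months against 3 weeks it was 0.38 ± 0.16 and was not called (adjusted p = 0.0834), though it was called without replicate 1 of 5 months (0.52, adjusted p = 0.0170) and without replicate 2 of 3 weeks (0.48, adjusted p = 0.0488). Thalamic neuron markers summed to 134 to 170 CPM at 3 weeks, 141 to 201 CPM at 5 months and 174 to 214 CPM at 19 months, with Ntng1, a netrin-G, called higher at 19 months against 3 weeks (0.95 ± 0.11) and Plekhg1 called lower (-0.74 ± 0.16). Their part in the Slc17a6 result was not tested.

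Slc17a7, in contrast, had 438, 658, 620 and 767 CPM at 3 weeks, 548, 561, 549 and 456 CPM at 5 months, and 494, 600, 591 and 589 CPM at 19 months. The 3 weeks libraries spread widely and enclosed all those of the later ages. Its difference from 3 weeks was -0.22 ± 0.12 at 5 months (edgeR adjusted p = 0.201) and -0.12 ± 0.12 at 19 months (adjusted p = 0.532), and neither was called. Both depended on single libraries of 3 weeks. Without replicate 1, the lowest, Slc17a7 was called lower at 5 months (-0.35, edgeR adjusted p = 0.00365) and at 19 months (-0.25, adjusted p = 0.0484). Without replicate 4, the highest, the differences were -0.098 at 5 months and 0.0032 at 19 months. Excitatory neuron markers were called lower at 19 months against 3 weeks for 5 of 8 genes, beside 9.44% of all genes tested. They summed to 452 to 505 CPM at 3 weeks, 405 to 465 CPM at 5 months and 345 to 367 CPM at 19 months. Their part in the levels of Slc17a7 was not tested.

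Slc1a1 had 67.9, 101, 101 and 99.0 CPM at 3 weeks, 70.4, 81.1, 68.5 and 66.0 CPM at 5 months, and 72.2, 94.5, 93.2 and 84.4 CPM at 19 months. Replicate 1 of 3 weeks was again far below its group and within the range of 5 months. Slc1a1 was called lower at 5 months against 3 weeks (-0.35 ± 0.11; edgeR adjusted p = 0.0244). The call was lost without any one of 6 libraries, replicates 1, 3 and 4 of 5 months and replicates 2, 3 and 4 of 3 weeks (adjusted p up to 0.0920), and without the libraries that stood apart (adjusted p = 0.0572). Slc6a17 was not called between any ages. It averaged 331 ± 52.0 CPM at 3 weeks, 341 ± 16.8 CPM at 5 months and 354 ± 30.5 CPM at 19 months (SD, n = 4 each), with a log2 difference of 0.10 at 19 months against 3 weeks and a 95% interval from -0.10 to 0.31.

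Ratios of counts within a library compare 2 genes without any scaling between libraries. The ratio of Gad1 to Gad2 was 0.769 to 1.08 at 3 weeks, 1.16 to 1.40 at 5 months and 1.31 to 1.57 at 19 months. Both later ages were above 3 weeks without overlap, by 0.52 (5 months) and 0.65 (19 months) on the log2 scale. Slc17a7 over Slc32a1, the vesicular glutamate against the vesicular GABA transporter, was 12 to 14.8 at 3 weeks, 8.34 to 10.5 at 5 months and 7.53 to 9.65 at 19 months. Here both later ages were below 3 weeks without overlap, by log2 differences of -0.51 and -0.68. Slc17a7 over Slc17a6 was 30.6 to 39.6 at 3 weeks, 18.4 to 33.2 at 5 months and 19.2 to 20.6 at 19 months, a log2 difference of -0.77 at 19 months against 3 weeks, again without overlap.

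Each of these 5 separations had p = 0.0286 in a two-sided exact permutation test, the smallest value that the 70 groupings of 4 against 4 libraries allow. After adjustment over all 12 ratio tests the value was 0.0686, so none passed 0.05. Between SYN and TH at 5 months the groups overlapped in all 3 ratios. Slc17a7 over Slc32a1 was 8.34 to 10.5 in SYN and 9.03 to 12.2 in TH (exact permutation p = 0.286), and Gad1 over Gad2 was 1.16 to 1.40 in SYN and 0.772 to 1.67 in TH (exact permutation p = 0.686). Slc17a7 over Slc17a6 was 18.4 to 33.2 in SYN and 9.97 to 22.7 in TH (exact permutation p = 0.114). With libraries of the same preparation number taken as pairs, Slc17a7 over Slc17a6 was higher in SYN in 4 of 4 pairs, by a mean of 0.72 on the log2 scale, and Slc17a7 over Slc32a1 was lower in 4 of 4 pairs, by a mean log2 difference of -0.18. Both had p = 0.125 in an exact sign-flip test, the smallest value that 4 pairs allow (adjusted p = 0.188).

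**Figure D4:**
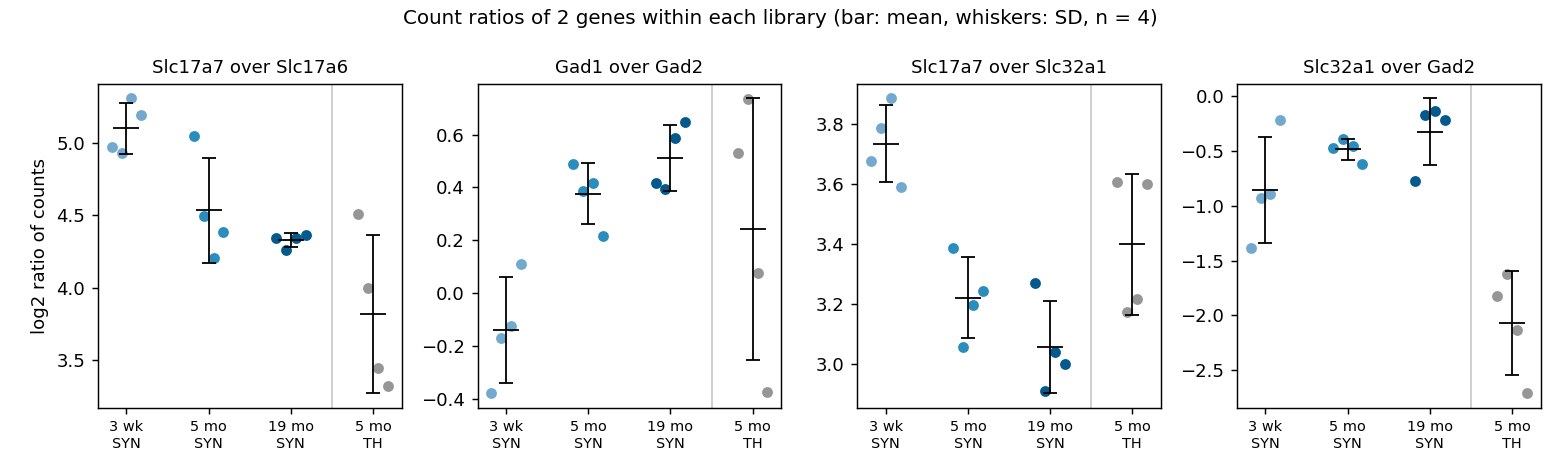
Log2 ratio of the counts of 2 genes in each library (vertical axes, each with its own range) for the 4 groups. Points are libraries, bars the mean and whiskers the SD (n = 4). Among the ages of SYN, Gad1 over Gad2 is lowest and Slc17a7 over Slc32a1 highest at 3 weeks, and Slc32a1 over Gad2 separates all SYN libraries of 5 months (0.651 to 0.763 as a plain ratio) from those of TH (0.153 to 0.325).

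Of the 16 other glutamate genes, 1 was called higher and 3 lower at 5 months against 3 weeks, beside 13.3% and 11.3% of all genes tested. At 19 months against 3 weeks, 3 were called higher and 3 lower, beside 10% and 9.44% of all genes tested. Slc38a1, which brings glutamine into neurons, was higher at both (0.49 ± 0.10 and 0.74 ± 0.10), and the mitochondrial glutamate carrier Slc25a22 was lower at both (-0.86 ± 0.10 and -0.60 ± 0.10). The mitochondrial aminotransferase gene Got2 was lower at both as well (-0.65 ± 0.16 and -0.71 ± 0.16). Abat was the 1 of 5 other GABA genes called, lower at 5 months (-0.40 ± 0.08) and at 19 months (-0.38 ± 0.08) against 3 weeks. Among 7 tested genes of other transmitters, 3 were called higher at 19 months against 3 weeks (Slc5a7, Slc6a9 and Th) and none lower, and 1 higher (Slc5a7) and 1 lower (Ddc) at 5 months against 3 weeks. Slc5a7 was higher against 3 weeks at 5 months (0.83 ± 0.24) and at 19 months (1.14 ± 0.24). It averaged 3.91 ± 1.11 CPM at 3 weeks, 6.92 ± 2.10 CPM at 5 months and 8.58 ± 1.80 CPM at 19 months (SD, n = 4 each). Of the other vesicular transporters 0 of 5 tested were called in any comparison of ages, and between 19 and 5 months Slc38a2 alone was called among all 4 groups of related genes (0.65 ± 0.12, edgeR adjusted p = 0.0216). That call was lost without replicate 3 of 19 months SYN, where 0 of all genes tested were called. Without replicate 1 of 5 months SYN, 2 of all genes tested were called. Whether Slc38a2 stayed called when libraries other than replicate 3 of 19 months were left out was not recorded.

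Splicing of the 8 genes gave little in the authors' deposited tables, which compare the ages of SYN. In the authors' deposited table of LeafCutter intron clusters, only Slc17a7 and Slc6a17 had a tested cluster, 1 each. Its adjusted p in the authors' deposited table was 0.974, 0.423 and 0.169 for Slc17a7 and 0.371, 0.342 and 0.461 for Slc6a17, for 5 months against 3 weeks, 19 against 5 months and 19 months against 3 weeks. None was called, beside 6.61%, 0.768% and 4.81% of all clusters. The Slc17a7 cluster in the authors' deposited table holds 2 introns that differ only in their end (chromosome 7, 45170747 to 45170846 or 45170850), and the shorter took 99.8% of usage at 19 months and 99.5% at 3 weeks. In the authors' deposited table of DIEGO junctions, the 8 genes had 84, 83 and 84 junctions in the same comparisons, and Slc32a1 had none. A single junction had a q-value under 0.05 in the authors' deposited table, in Gad2 at 5 months against 3 weeks (q = 0.0464, chromosome 2, 22693871 to 22694051), beside 1.48% of all junctions, and the authors' own column did not mark it as significant. That junction reaches past the end of Gad2 in the authors' counts table (22693874).

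Across the 16 libraries the 8 genes fell into different patterns, described here by Pearson's r of log2 CPM, which largely follows the 4 groups since the libraries of a group share fraction and age. Slc17a7 and Slc6a17 varied together (r = 0.97), as did Slc32a1 and Slc6a17 (r = 0.95) and Slc17a7 and Slc1a1 (r = 0.93). The vesicular transporters of glutamate and GABA, Slc17a7 and Slc32a1, had r = 0.90. Gad1 and Gad2 were related weakly to each other (r = 0.16), and Gad2 ran against Slc17a7 (r = -0.66). The genes most like each member, among 9401 with a mean of at least 5 CPM, were B4galt5, Atp9a and Grin1 for Slc17a7 (r from 0.985 to 0.986), Itm2c, Slc12a5 and Scamp5 for Slc6a17 (0.990 to 0.993), and Slc2a3, Scube1 and Reep1 for Slc1a1 (0.982 to 0.989). They were Dgcr2, Grm4 and Penk for Slc32a1 (0.972 to 0.982) and Tenm3, Kctd12 and Plekhb2 for Slc6a11 (0.974 to 0.981). The likeness was looser for Gad1, with Inpp5j, Ampd2 and Lgr5 (0.903 to 0.918), for Slc17a6, with Slc29a1, Abca1 and Slc35g2 (0.864 to 0.868), and for Gad2, with Rab2a, Cog2 and Inpp4b (0.810 to 0.830).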

How the data were processed

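The authors' deposited counts of uniquely aligned reads per gene (48709 genes, 16 libraries) were used as given, with 0 count columns outside the series. Per the submitters' processing notes, reads went through bcl2fastq 2.20.0.422, cutadapt 1.18 and Trimmomatic 0.38, and featureCounts (Subread) was used with build GRCm38.p6. No aligner, annotation release or setting for strand is given in the sources used here. The library kit keeps the strand, per the labels' protocols. CPM per kb uses the gene length deposited by the authors. The authors' deposited LeafCutter tables list, per the file headers, an adjusted p-value for each cluster and a fraction for the use of each intron, and their DIEGO tables give p-values, q-values and a score of abundance change whose sign and log base are not given, so that score was not used.

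After filterByExpr and TMM scaling, genes were tested in edgeR 4.0.16 (quasi-likelihood F test, robust, R 4.3.3). The 8 libraries of 5 months entered the fit of SYN against TH, and all 12 SYN libraries that of the ages. Adjusted p-values are Benjamini-Hochberg over all genes tested, called under 0.05, and p-values for named genes are edgeR's unless another test is named. SE is the absolute log2 fold change over the square root of F. CPM come from TMM over all 16 libraries, fold changes from each fit. Ratios used a pseudocount of 0.5 for the tests, and correlations a prior count of 2. Depth (10.6 to 21.7 megacounts) limits Slc17a6 most. The members, lists and naming rule (all 8 members, up to 4 called genes of a related list, 3 neighbours per member) were chosen with earlier results of these data known. The alternatives were DESeq2 1.42.0 (size factors, Wald test), other scalings and filters, other sample sets, a replicate block and each library left out.

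Columns of 5 months SYN and TH carry the same 4 preparation numbers, taken as pairs by inference, since homogenate was kept from the preparations. Deviations of same-numbered libraries correlated at 0.0884, 0.0200, 0.0176 and 0.144, and those of different numbers at -0.0942 to 0.0755. Replicate 2 of SYN correlated better with replicate 3 of TH (0.0755) than with its own number. Replicate 3 of SYN did so with replicate 2 of TH (0.0231). No 2 libraries held identical counts. Stretches of sequence were aligned with Biopython from GENCODE vM21 transcripts, whose Gad1-ps is shorter (1776 bases) than in the authors' table (3278 bases). Some genes that the naming rule covers are not reported here.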

Additional observations from a re-analysis of the deposited data

Results flagged for a closer look

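Among 44 groups of 4 libraries examined (8 genes and 3 ratios in 4 groups), 4 values lay far from the other 3 of their group by Dixon's criterion, which chance meets in about 1 of 20 groups. Slc17a7 had 456 CPM in replicate 4 of 5 months SYN, against 548 to 561 CPM in the others, and 494 CPM in replicate 1 of 19 months SYN, against 589 to 600 CPM in the others. Those are the libraries that stood apart in Malat1 and in the share of mitochondrial counts. Slc1a1 had 67.9 CPM in replicate 1 of 3 weeks SYN, against 99.0 to 101 CPM in the others. The same library was the lowest of its group for Slc17a7 (438 CPM), Slc17a6 (13.9 CPM), Slc6a17 (261 CPM), Slc32a1 (34.3 CPM) and Gad1 (69.0 CPM). Gad1 had 134 CPM in replicate 4 of 19 months SYN, against 117 to 118 CPM in the others, and without that library its log2 fold change at 19 months against 3 weeks was 0.65.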

How the results depend on the processing

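Under other scalings, filters and fits, the called genes kept their direction, and calls moved only as given here or beside the results. With the replicate number as a block, 5 of the 8 genes were called at 5 months against 3 weeks instead of 3, adding Slc17a6 (edgeR adjusted p = 0.0309) and Slc32a1 (0.0489). The number called over all genes rose as well, from 3773 to 4070. The ages share only these replicate numbers, and not every library correlated best with its own. Pairing SYN with TH changed no call beyond that of Slc17a6. The number of all genes called between 19 and 5 months, 46, was unstable: 292 with no filter, 264 with the block, 306 with the DESeq2 Wald test, 28 with all 16 libraries in the fit, 320 with only the 8 libraries compared, 5 without the libraries that stood apart, and 0 to 284 leaving out 1 library. The cause was not tested. In each of these, 0 of the 8 genes were called. Leaving out 1 library at a time turned the sign of 5 differences that were not called: Gad1 in SYN against TH ranged from -0.31 to 0.019 on the log2 scale, Gad1 over Gad2 there from -0.071 to 0.30, Slc6a17 at 5 months against 3 weeks from -0.033 to 0.14, and at 19 months against 3 weeks Slc17a7 from -0.25 to 0.0032 and Gad2 from -0.00037 to 0.095.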
